A study of Danio rerio with 8 samples.

Results

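The genes of protein synthesis described here are the zebrafish translation initiation factors (eif genes), the elongation factors with the enzymes that modify them (eef genes) and the aminoacyl-tRNA synthetases. They were chosen by symbol, through the RefSeq accession that the array gives for each probe, and each gene was read from its brightest probe, judged by mean log2 signal over the 8 arrays. A probe was matched for 98 of the 122 genes with such symbols in a RefSeq table, out of 13143 genes with a symbol on the array. The other 24 were not analysed here, among them the kinase genes eif2ak3 and eif2ak4.

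Retinal RNA of wild-type adult zebrafish aged 9 to 12 months, of both sexes without distinction, was hybridised to 8 one-colour arrays. In the 4 crush pools the right optic nerve had been crushed 3 days earlier, and the 4 control pools came from the right retinae of intact fish with no operation. Each pool held the retinae of 4 fish, so the spread given below is that between pools and not between single animals. The controls had no sham surgery, and the effect of crushing the nerve cannot be told apart from that of the operation itself.

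Protein synthesis begins when eIF2 brings the initiator tRNA to the small ribosomal subunit, while eIF4 factors bind the cap of the mRNA and eIF3 joins them. Elongation factors then deliver charged tRNAs and move the ribosome along, and a synthetase for each amino acid loads the tRNAs. Kinases that phosphorylate eIF2 and proteins that bind eIF4E slow initiation, and injured neurons that regrow an axon need new protein.

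Median spot intensity was 153 to 194.5 in control and 181.5 to 193 in crush pools, and no spot was saturated. Control pool 2 stood apart, with 382 outlier spots against 6 to 21 on the other arrays and 84.0% of spots well above background against 72.5% to 77.8%. Pools correlated with r from 0.979 to 0.991 within a group and from 0.973 to 0.986 between groups. The control arrays all lay on one slide and the crush arrays on another, so slide and group cannot be told apart. Retina markers were present, and the ganglion cell genes pou4f2, rbpms2a and rbpms2b were lower after crush (log2 fold changes of -1.91, -1.47 and -1.16). In whole retina, fewer cells of a type and less RNA per cell cannot be told apart.

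Translation genes were higher after crush, mostly by a small amount. A gene was called over-expressed at a fold change of at least 1.5 and an adjusted p of at most 0.05 in limma, and 8 of the 98 (8.16%) passed: rars1, wars1, eif2s2, eef1akmt1, eif5a2, eef2b, eif6 and eef1g. Of all genes with a symbol 2.47% were called higher, and of those well above background on all 8 arrays 2.59%. None of the 98 was called lower, against 0.883% of all genes, and at an unadjusted p under 0.05 none was lower, against 9.06% of all genes, and 46 were higher, against 12.9%. With the adjusted p alone 10 genes passed (10.2% against 2.95% of all genes), eif3f and sars1 being the additional ones.

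The direction was shared well beyond those 8 genes. The crush mean was above the control mean in 87 of the 98 (88.8%, against 51.4% of all genes and 51.9% of those well above background), a count of 83 with the scanner's processed signal and 90 under median scaling, and in 43 of the 98 (43.9%, against 10.3% and 11.5%) every crush pool exceeded every control pool. No gene had every crush pool below every control pool, which 6.53% of all genes had. The median log2 fold change was 0.26, and that of all genes was 0.01. The 98 genes were also brighter, with a mean log2 level of 11.37 to 11.56 in control pools. That level was 8.85 to 8.87 for all genes and 9.86 to 9.89 for those well above background. Whether the level affected these shares was not tested.

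**Figure D1:**
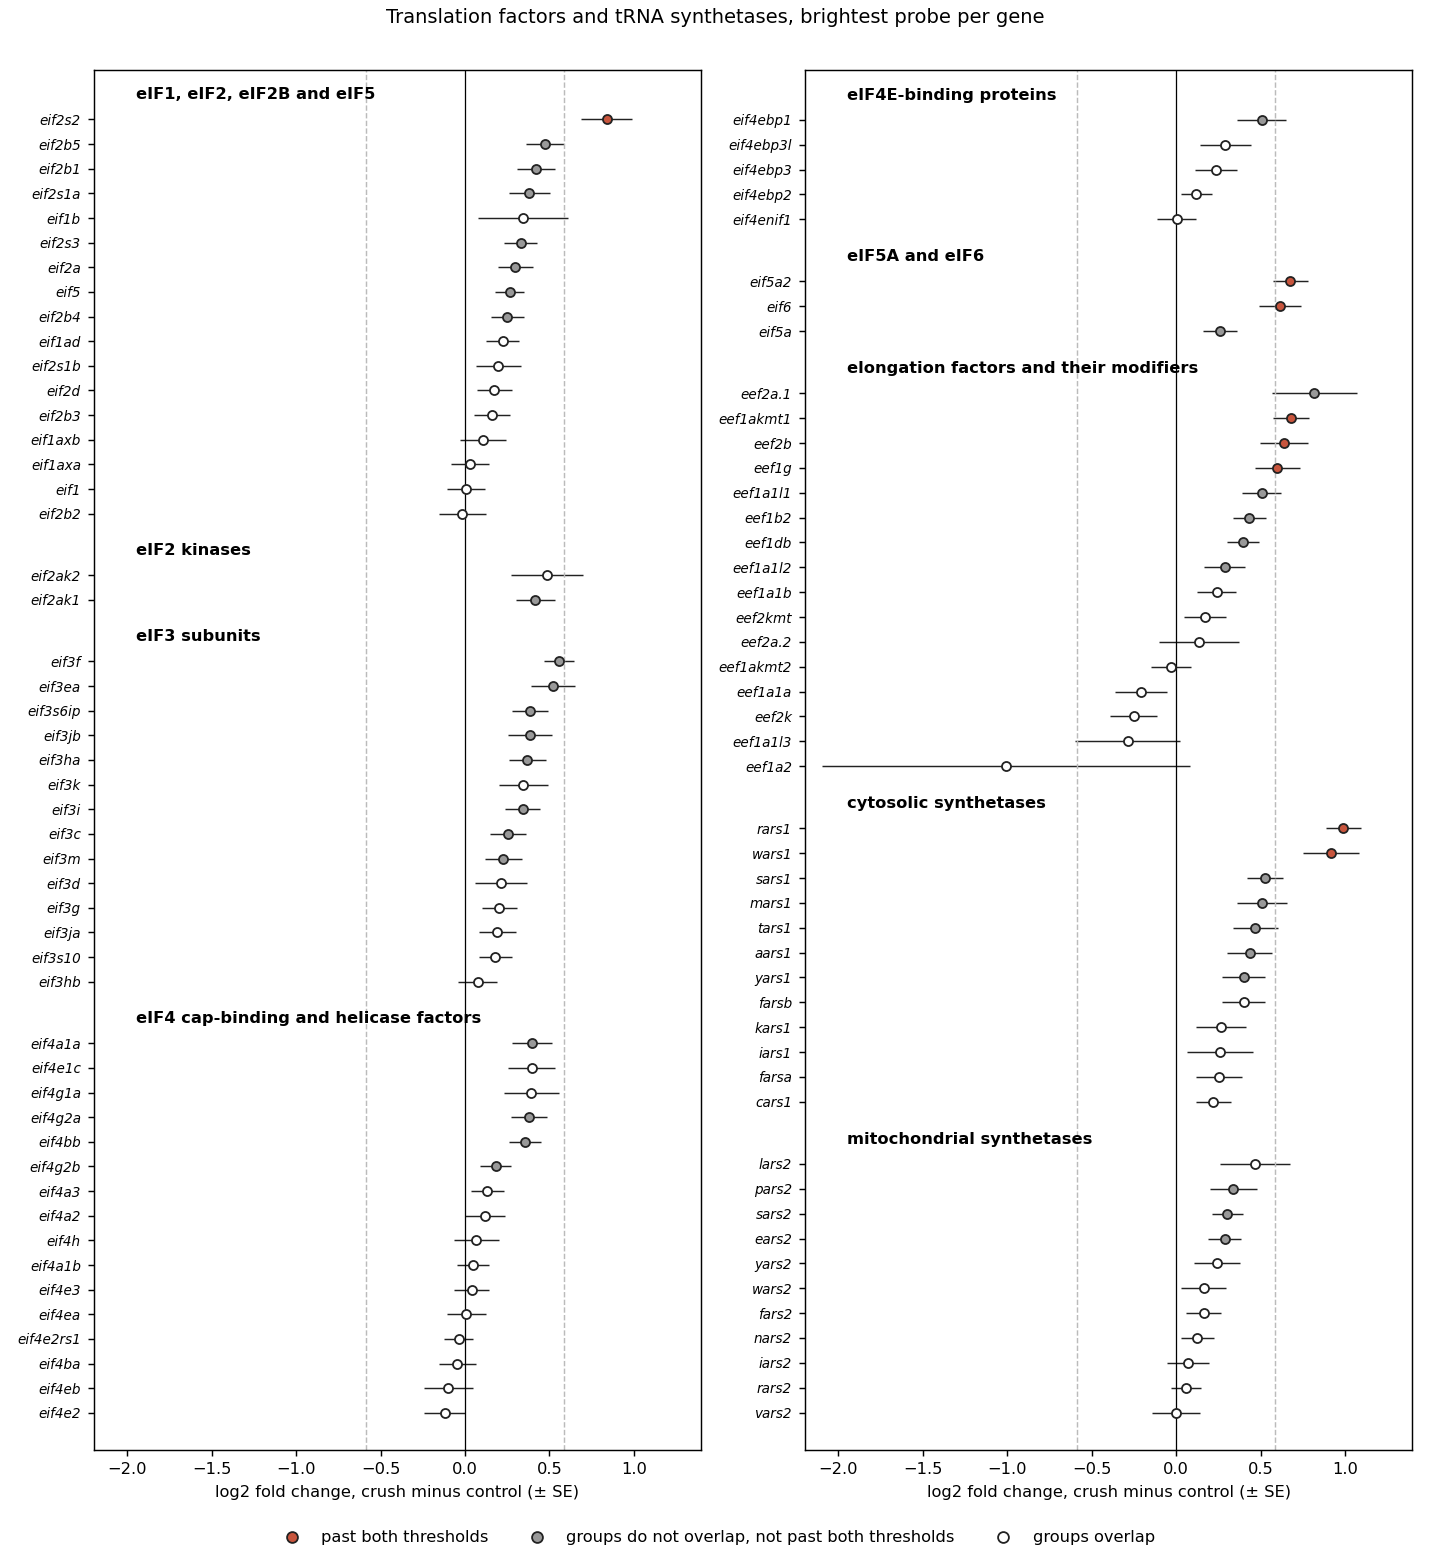
Log2 fold change (crush minus control, x axis) of 96 of the 98 genes by role (eif4e1b, with no signal well above background, is among those left out), with the SE of the limma fit as bars and dashed lines at a fold change of 1.5. The 8 over-expressed genes are filled red, the other genes whose pools did not overlap are grey, and eef1a2 has the widest bar.

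The shift was present in each crush pool. Set against the mean of the control pools, the median of the 98 genes was 0.19, 0.31, 0.24 and 0.29 on the log2 scale in crush pools 1 to 4. In control pools 1 to 4 it was -0.01, -0.03, -0.05 and 0.10. All crush pools were above all control pools, with control pool 4 the highest control. The same median over all genes lay between -0.02 and 0.04 in the 8 pools.

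The number of calls depended on single pools. It was 3, 5, 1 and 10 without control pools 1 to 4 in turn, and 6, 1, 2 and 4 without crush pools 1 to 4. With a pool left out the whole array also had fewer calls in most cases, from 482 to 1533 probes against 1203. The median of the 98 genes moved little, from 0.23 to 0.29, and rars1 was called in all 8 cases.

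Among synthetases, all 24 genes had a higher crush mean, although nars2, rars2 and vars2 were lower with the scanner's processed signal and vars2 under median scaling. Of the 13 genes for cytosolic enzymes 2 were called. For these and the role groups below, the shares over all genes were 51.4% with a higher mean and 2.47% called higher. In 10.3% of all genes every crush pool exceeded every control pool. The gene rars1, for the enzyme that charges tRNA with arginine, had the largest rise of all 98 genes. Its log2 signal was 10.48, 10.59, 10.55 and 10.76 in the control pools and 11.46, 11.71, 11.58 and 11.59 in the crush pools. The groups were clear of each other, the highest control pool lying well below the lowest crush pool. The log2 fold change was 0.99 (SE 0.10, n = 4 pools per group), or 1.99-fold (adjusted p = 0.00256 in limma).

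The gene wars1, for the tryptophan enzyme, was next. Its log2 signal was 11.39, 11.81, 11.63 and 11.83 in control and 12.29, 12.89, 12.71 and 12.43 in crush pools. The groups did not overlap, though pools of each group were more widely spread than for rars1. The log2 fold change was 0.92 (SE 0.16, adjusted p = 0.0244 in limma). Leaving out 1 pool at a time kept its call in 4 of 8 cases.

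For sars1, the serine enzyme, the control pools read 12.04, 12.08, 12.03 and 12.26 and the crush pools 12.48, 12.75, 12.59 and 12.68. Its adjusted p of 0.0365 in limma passed, but its log2 fold change of 0.53 (SE 0.11) was under the fold threshold. Over all 13 cytosolic genes, the pools did not overlap in 7 and the median log2 fold change was 0.40. The gene kars1, counted among these 13, serves both the cytosol and mitochondria.

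The 11 mitochondrial synthetases, which serve the separate ribosomes of that organelle, had a median of 0.16 and no call. The pools did not overlap in 3 of them (pars2, sars2 and ears2). The highest was lars2, for leucine, with control pools at 7.46, 6.67, 7.03 and 6.74 and crush pools at 7.13, 7.72, 7.63 and 7.29 (log2 fold change 0.47, SE 0.21, adjusted p = 0.258 in limma). These overlapped, control pool 1 being above crush pool 1. The lowest was vars2, for valine, at 0.00 (SE 0.14), with control pools at 6.55, 6.14, 6.54 and 6.59 and crush pools at 6.33, 6.61, 6.60 and 6.28.

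**Figure D2:**
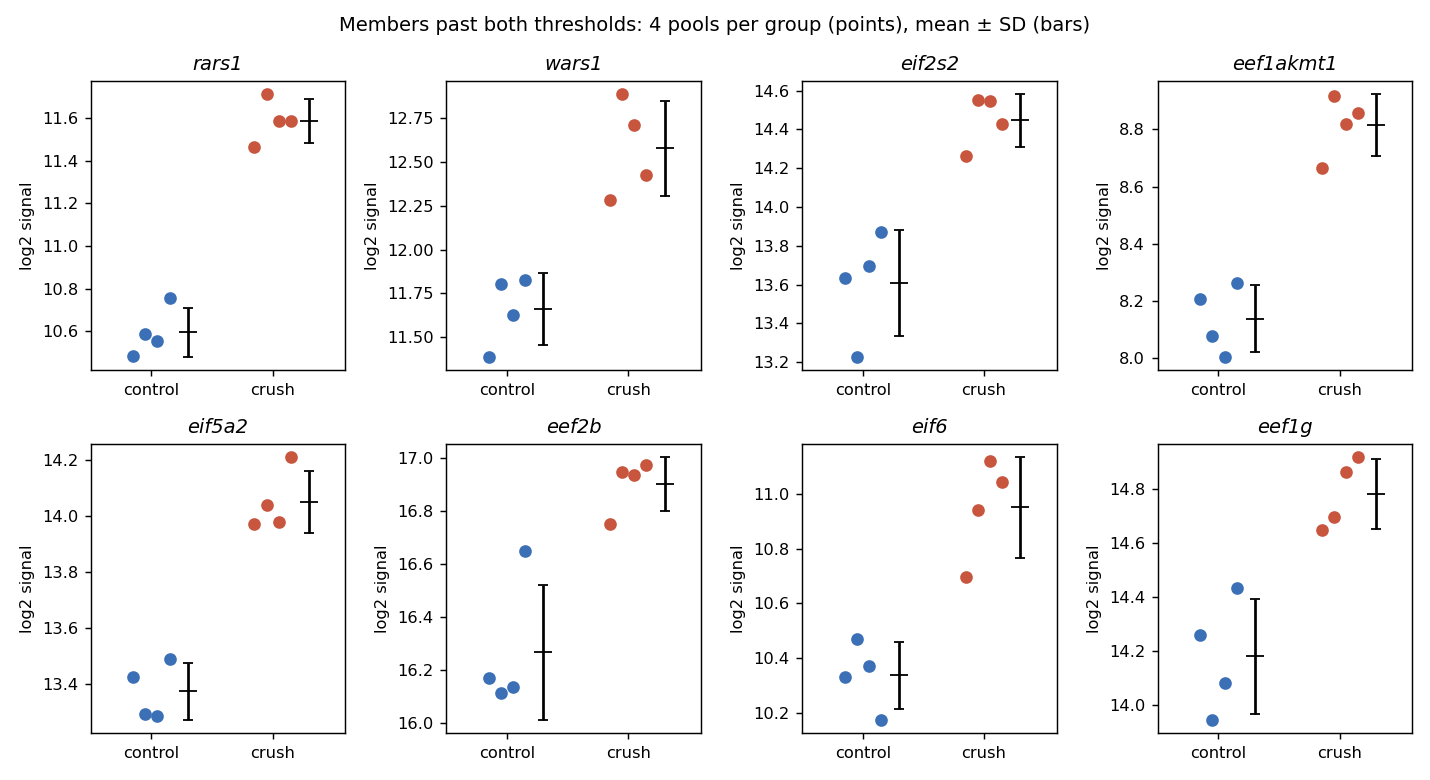
Log2 signal (y axis, a separate scale per gene) of the 8 over-expressed genes in 4 control (blue) and 4 crush (red) pools, with the mean and SD of each group as black bars. The groups do not overlap for any of the 8, and the gap between them is narrowest for eef2b, with control pool 4 at 16.65 and crush pool 1 at 16.75.

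Enzymes for the same amino acid in the cytosol and in mitochondria could be compared within each array for 6 amino acids, together with 9 pairs of paralogues. The log2 fold change of rars1 exceeded that of its mitochondrial partner rars2 by 0.93 (SE 0.11), and that of wars1 exceeded wars2 by 0.75 (SE 0.21). Both reached the smallest p that 70 relabellings of the pools can give (exact two-sided permutation p = 0.0286). After adjustment over the 15 pairs that p is 0.107, and no pair passed. However large its difference, a single pair could not have passed alone, as many of the 15 would need this smallest p. The serine, tyrosine, isoleucine and phenylalanine pairs differed by 0.22, 0.16, 0.19 and 0.09, with the cytosolic gene higher in each. These values are those of the brightest probes, and dimmer probes of iars1 were at -0.39 and 0.44. Mitochondrial synthetases had the lower signal, with a mean log2 level of 8.27 to 8.44 in control pools against 11.66 to 11.99 for cytosolic ones. Whether the level affected the differences was not tested.

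Among paralogues, the log2 fold change of eif4bb exceeded that of eif4ba by 0.40 (SE 0.10) and that of eif4g2a exceeded eif4g2b by 0.20 (SE 0.06), again at the smallest p of 0.0286 and an adjusted p of 0.107 (exact permutation). For eif3ha over eif3hb the difference was 0.29 (SE 0.10) and for eif4a1a over eif4a1b it was 0.35 (SE 0.12). The eef1a1, eif1ax, eif2s1, eif3j and eif4e pairs had an unadjusted p of 0.114 to 0.657 in the same exact permutation test.

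**Figure D3:**
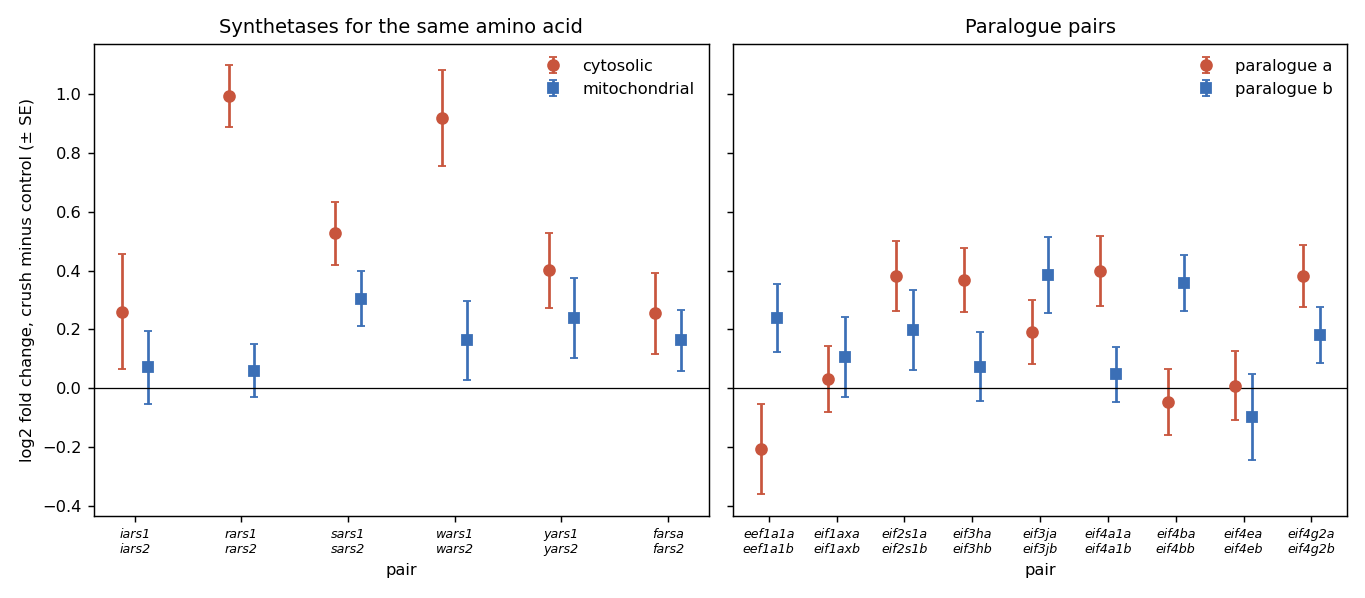
Log2 fold change (± SE, y axis) for 6 pairs of cytosolic and mitochondrial synthetases (left) and 9 paralogue pairs (right). The cytosolic gene is the higher one in all 6, and the gap is widest for rars1 and rars2.

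Of the 17 genes for eIF1, eIF2, eIF2B and eIF5, which place the initiator tRNA on the start codon, 16 had a higher crush mean and 8 had pools that did not overlap. The only call was eif2s2, the beta subunit of eIF2. Its log2 signal was 13.64, 13.23, 13.70 and 13.87 in control and 14.26, 14.55, 14.55 and 14.43 in crush pools. The groups were separate, with control pool 2 the lowest of the 8. The log2 fold change was 0.84 (SE 0.15, adjusted p = 0.0252 in limma). Those of the alpha subunit genes eif2s1a and eif2s1b were 0.38 and 0.20, and that of the gamma subunit gene eif2s3 was 0.33, none called. The call of eif2s2 was kept in 3 of 8 cases with a pool left out.

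The eIF2B genes, whose complex recharges eIF2 with GTP, were not called. The highest was eif2b5 (0.48, adjusted p = 0.0585 in limma). The lowest was eif2b2, at -0.02 (SE 0.14), with control pools at 11.57, 11.32, 11.54 and 11.38 and crush pools at 11.43, 11.66, 11.56 and 11.11, the widest spread being in crush.

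The 14 eIF3 subunit genes, which make up the scaffold of the initiation complex, all had a higher crush mean, with a median of 0.30, and 8 did not overlap. The highest was eif3f, with control pools at 13.90, 13.76, 13.91 and 13.88 and crush pools at 14.42, 14.35, 14.43 and 14.48. The groups were narrow and far apart, so that the log2 fold change of 0.56 (SE 0.09) had an adjusted p of 0.0167 in limma but stayed under the fold threshold. The lowest was eif3hb, at 0.07, with overlapping pools of 13.95, 14.07, 13.87 and 14.26 in control and 14.15, 14.03, 14.03 and 14.23 in crush.

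The 17 genes for eIF4 factors were grouped by symbol, and many of these factors bind the cap or unwind the mRNA. The 17 had the lowest median of the groups (0.07), with 12 higher means, 4 without overlap and no call. The highest was eif4a1a, a helicase gene (0.40, SE 0.12, adjusted p = 0.117 in limma), with control pools at 10.24, 10.34, 10.45 and 10.11 and crush pools at 10.47, 10.74, 10.70 and 10.81. These just missed overlapping. The lowest was eif4e2, for a cap-binding protein that can repress translation in mammals, at -0.12 (SE 0.12), with control pools at 8.99, 9.20, 9.03 and 9.14 and crush pools at 9.24, 8.92, 8.91 and 8.81. The brightest probe of eif4e1b was nowhere well above background, so no fold is given, while the other 97 genes were well above background on all 8 arrays.

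The 3 genes for eIF5A and eIF6 all had pools without overlap, and 2 were called. The gene eif5a2 makes a form of eIF5A, the hypusine-bearing factor that helps ribosomes through difficult stretches. Its pools read 13.43, 13.29, 13.28 and 13.49 in control and 13.97, 14.04, 13.98 and 14.21 in crush. All control pools were below all crush pools, and the log2 fold change was 0.68 (SE 0.10, adjusted p = 0.0132 in limma).

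The gene eif6 makes a factor that keeps the large ribosomal subunit from joining the small one too early. Its pools read 10.33, 10.47, 10.37 and 10.18 in control and 10.70, 10.94, 11.12 and 11.04 in crush (0.61, SE 0.12, adjusted p = 0.0369 in limma). The groups did not overlap, and the call was kept in 1 of 8 cases with a pool left out, against 6 of 8 for eif5a2. The other eIF5A gene, eif5a, read 13.84, 13.67, 13.63 and 13.88 in control and 13.95, 13.99, 14.00 and 14.12 in crush (0.26, adjusted p = 0.206).

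Elongation genes had means in both directions. Of 16 genes, 11 had a higher crush mean, 8 did not overlap and 3 were called. Over all genes these shares were 51.4% higher, 10.3% with every crush pool above every control pool and 2.47% called higher. The gene eef2b makes eEF2, which moves the ribosome along by one codon. Its control pools read 16.17, 16.11, 16.13 and 16.65 and its crush pools 16.75, 16.95, 16.94 and 16.98, with control pool 4 apart from the other controls. The log2 fold change was 0.64 (SE 0.14, adjusted p = 0.0499 in limma), at the edge of the threshold, and the call was kept in 1 of 8 cases with a pool left out.

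The gene eef1g makes a subunit of the complex that recharges eEF1A, and eef1akmt1 makes an enzyme that methylates it. The pools of eef1g read 14.26, 13.95, 14.08 and 14.43 in control and 14.65, 14.70, 14.86 and 14.92 in crush (0.60, SE 0.13, adjusted p = 0.0493 in limma, kept in 1 of 8 cases). Those of eef1akmt1 read 8.21, 8.08, 8.003 and 8.26 in control and 8.67, 8.92, 8.82 and 8.86 in crush (0.68, SE 0.11, adjusted p = 0.0144, kept in 5 of 8). In both genes every crush pool was above every control pool.

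The second eEF2 gene, eef2a.1, had a larger difference with a larger error and was not called (0.82, SE 0.25, adjusted p = 0.125 in limma). Its pools read 9.37, 8.34, 8.63 and 9.49 in control and 9.62, 9.81, 9.76 and 9.90 in crush, the control pools spanning over 1 log2 unit. The eEF1A gene eef1a1l1, which delivers charged tRNAs, read 17.33, 17.38, 17.33 and 17.69 in control and 17.89, 17.95, 17.87 and 18.05 in crush (0.51, SE 0.11, adjusted p = 0.0531).

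Of the elongation genes with lower means, eef1a2 was the most widely spread between pools. For eef1a2, in mammals the eEF1A form of muscle and neurons, the control pools read 10.57, 6.53, 11.54 and 12.30 and the crush pools 9.36, 9.42, 9.59 and 8.53. Control pool 2 was far below every other pool, and the other 3 control pools were above all crush pools. The log2 fold change was -1.01 (SE 1.09, adjusted p = 0.655 in limma) and -2.24 (adjusted p = 0.0477) without control pool 2, the one setting in which a gene was called lower. With outlier spots kept the value over all pools was -1.01. Relative to the control mean, 10 skeletal muscle markers averaged -0.18, -0.34, 0.99 and -0.47 in control pools 1 to 4, and their part in the eef1a2 values was not tested.

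Smaller falls were not called. The eEF1A gene eef1a1l3 read 7.41, 6.54, 6.90 and 6.19 in control and 6.24, 5.93, 6.62 and 7.10 in crush (-0.29, adjusted p = 0.657). Its paralogue eef1a1a read 15.17, 15.31, 14.77 and 15.03 in control and 14.995, 14.92, 14.99 and 14.55 in crush (-0.21, adjusted p = 0.503). In both the groups overlapped.

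**Figure D4:**
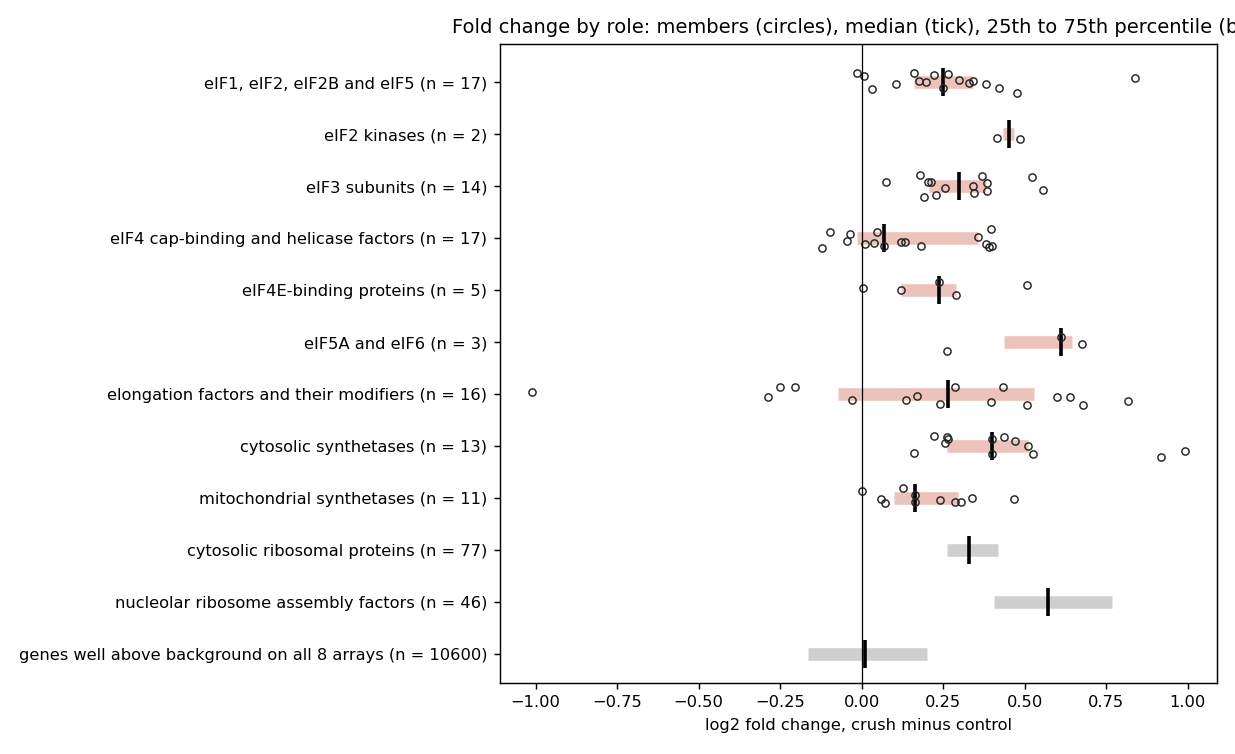
Log2 fold change (x axis) by role, with 97 genes as circles (eif4e1b is left out) and, over all 98, the median as a tick and the 25th to 75th percentiles as a bar. The 77 cytosolic ribosomal proteins, the 46 nucleolar assembly factors and all 10600 genes well above background on all 8 arrays are shown as medians and bars only, at 0.33, 0.57 and 0.01.

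None of the genes for the eIF2 kinases, the eIF4E-binding proteins or the eEF2 kinase was called. Of all genes 2.47% were called higher and 0.883% lower. The kinase gene eif2ak1, for the haem-regulated kinase of eIF2, read 10.07, 9.94, 9.87 and 10.27 in control and 10.36, 10.42, 10.48 and 10.55 in crush (0.42, adjusted p = 0.096 in limma). These did not overlap, and the 2 dimmer probes of the gene had 0.34, well above background on all 8 arrays, and -0.47, well above it on 3 arrays of each group. The kinase gene eif2ak2, for the double-stranded RNA sensor, read 5.55, 5.51, 5.76 and 6.21 in control and 5.96, 6.51, 5.94 and 6.56 in crush (0.49, adjusted p = 0.252), with overlap through control pool 4.

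The eIF4E-binding proteins keep eIF4E from the cap complex. The pools of eif4ebp1 read 12.03, 12.29, 12.07 and 12.58 in control and 12.67, 12.65, 12.72 and 12.94 in crush (0.51, SE 0.14, adjusted p = 0.103 in limma), without overlap. For eif4ebp2, eif4ebp3 and eif4ebp3l the log2 fold changes were 0.12, 0.24 and 0.29. In all of these 3 the groups overlapped. The gene eif4enif1, for a carrier of eIF4E, was at 0.00 (SE 0.11), its control pools (11.53 to 11.88) enclosing its crush pools (11.60 to 11.80).

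The kinase gene eef2k, whose product inhibits eEF2, read 10.55, 10.25, 10.43 and 10.64 in control and 10.43, 9.95, 10.17 and 10.32 in crush (-0.25, SE 0.14, adjusted p = 0.36 in limma). The groups overlapped, with crush pool 2 the lowest of the 8.

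Most genes had more than 1 probe, and their probes mostly had the same direction. Of 232 probes for the 98 genes, 205 had a higher crush mean and 22 were called higher, none lower. On the whole array 1203 of 43601 probes were called, 68.7% of them higher. In 58 of the 69 genes with more than 1 probe every probe had the same direction, with a median spread of 0.16 over these 69 genes. All probes were called for rars1, wars1 and eef1akmt1.

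In 3 genes only a dimmer probe was called. The gene eef1a1l1 had 5 of 10 probes called (0.34 to 0.87), and eif3ea had 1 of 6 (0.43 to 0.60). The gene eef1a1l2 had 1 of 6, but its probes ran from -0.66 to 0.81. The other genes with probes in both directions were eef1a1b (-0.62 to 0.24), eif2ak1, iars1 (-0.39 to 0.44), eif4g2b, eif2b4, eif4ba, vars2, eif4eb, eif4a3 and eef1akmt2. The eEF1A paralogues are similar in sequence, and how far their probes bind each other's RNA was not tested.

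**Figure D5:**
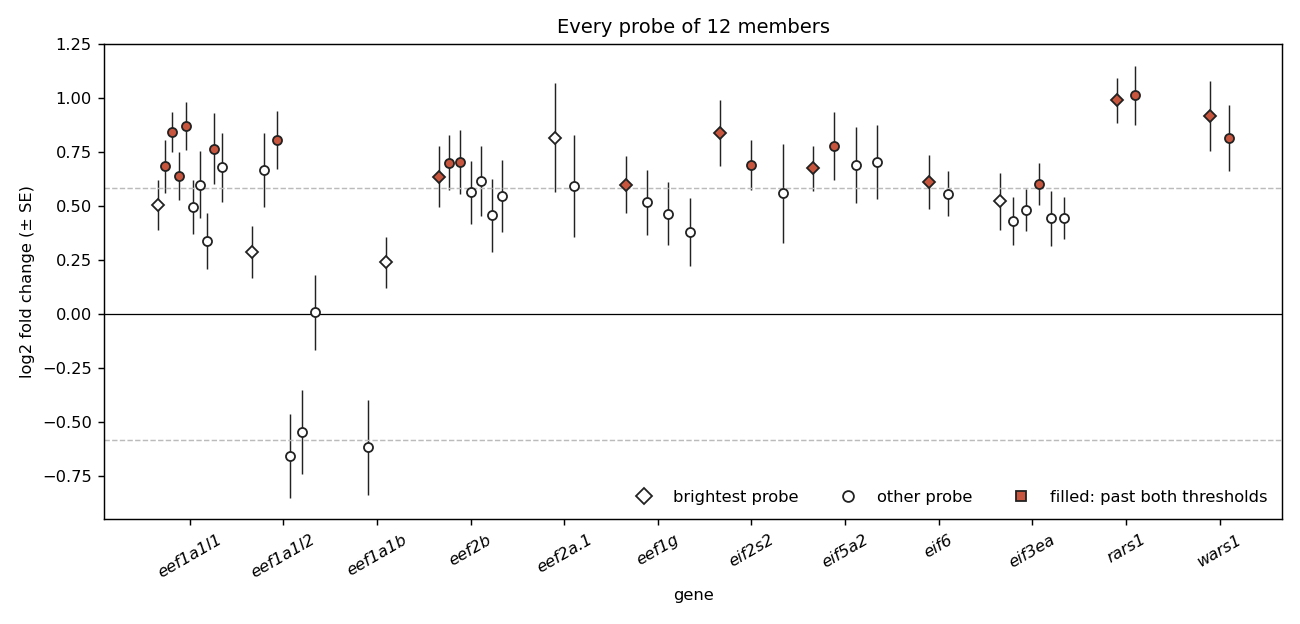
Log2 fold change (± SE, y axis) of every probe of 12 genes, with the brightest probe of each as a diamond and probes past both thresholds filled. The 10 probes of eef1a1l1 all lie above 0, between 0.34 and 0.87, and those of eef1a1l2 lie on both sides.

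Genes for the ribosome itself and for its assembly were also mostly higher after crush. Of 77 cytosolic ribosomal protein genes 76 had a higher crush mean, 60 did not overlap and 2, rpl7l1 and rps6, were called (median 0.33). That share of calls was near the 2.47% of all genes called higher. Of all genes 51.4% had a higher mean, and in 10.3% every crush pool exceeded every control pool. Of 46 nucleolar assembly factors 45 were higher and 18 were called (median 0.57). Whether these medians differ from those of the translation genes was not tested.

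Neighbouring steps of translation were measured with lists chosen by function. Of 13 termination, recycling and poly(A)-binding genes 10 had a higher mean and none was called, though the release factor gene etf1b (0.50, adjusted p = 0.0315 in limma), the ribosome-recycling gene abce1 (0.54, adjusted p = 0.0353) and mcts1 (0.43, adjusted p = 0.0461) passed on the adjusted p alone. Of 8 genes for the hypusine and diphthamide modifications of eIF5A and eEF2, dph6 was called (0.69, adjusted p = 0.0117) and 6 had a higher mean. None of 9 mitochondrial translation factors (8 higher) or of 10 synthetase helpers (7 higher) was called. These genes were named after their values were seen. Of all genes 51.4% had a higher mean, 2.47% were called higher and 2.95% were higher and passed on the adjusted p alone.

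Genes for the signalling that controls translation had medians nearer 0 (0.06 for mTOR and eIF2 signalling and 0.07 for the ATF4 programme), which was not tested as a difference. Under median scaling 13 of the 17 genes measured in each list were higher, with medians of 0.13 and 0.18. A median over transcripts gives no direction for the activity of a pathway, which was not measured. Of 32 listed genes of mTOR and eIF2 signalling 17 were measured. Of these 10 (58.8%) were higher, near the 51.4% of all genes, of which 2.47% were called higher. The only one called was rps6 (0.62, adjusted p = 0.0287 in limma), a ribosomal protein that the mTOR pathway phosphorylates. It is also counted among the 77 ribosomal protein genes above. The mtor gene itself was at -0.03. In 3 of the 17 (rps6, rhebl1 at 0.50 and mknk1 at 0.36) every crush pool exceeded every control pool. The reverse held for 1, rheb at -0.31. Over all genes these shares were 10.3% and 6.53%. Of 19 listed genes of the ATF4 programme, which follows eIF2 phosphorylation, 17 were measured. Of these 10 (58.8%) were higher, again near the share of all genes, and none was called. The nearest were trib3 (1.02, adjusted p = 0.0509) and atf4b (0.46, adjusted p = 0.0561), while asns, for asparagine synthesis, was at 0.22 and ddit3 at 0.07. Phosphorylation was not measured.

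Marker genes of other cells and tissues varied between the pools, and none of the lens, muscle, red blood cell or myeloid genes was called. The mean log2 level of 6 lens genes, only 2 of them well above background on all arrays, was 5.57 to 10.97 in control and 4.83 to 5.57 in crush pools, highest in control pool 1. The 10 muscle genes had 6.76 to 8.22 and 6.59 to 6.74, highest in control pool 3, and 5 red blood cell genes 9.04 to 10.37 and 8.39 to 9.73. The 9 myeloid genes had 9.71 to 10.29 and 9.94 to 10.64, and the 6 proliferation genes 7.44 to 8.18 and 8.45 to 8.88. Of these 6 proliferation genes 5 had a higher mean and 2, cdk1 and ccnb1, were called higher. The shares over all genes were 51.4% and 2.47%. The log2 fold changes of mcm5, mcm2, pcna and tk1, not called, were 1.23, 0.96, 0.02 and -0.32. Among the 9 myeloid genes 7 had a higher mean, with csf1ra (-0.23) and mpx (-0.08) lower. In mpeg1.1 (0.52) and spi1b (0.59) every crush pool exceeded every control pool, as in 10.3% of all genes. Without control pool 1 the median of the translation genes was 0.27, and without control pool 3 it was 0.26. The part of other cell types in the differences was not tested.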

How the data were processed

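Scanner files of 8 arrays were used as deposited; they hold the median fluorescence intensity of each spot and of its local background, read with Feature Extraction 10.7.3.1. The authors also deposited log2 values, which recomputation matched to normexp at an offset of 16 and quantile normalisation. Here the intensities were corrected with normexp (offset 0), control spots were dropped and outlier spots were set to missing. The arrays were then put through quantile normalisation, after which the log2 was taken. Correction on mean signals was planned, but the files hold medians. Probes with at least 2 values per group were fitted with lmFit and eBayes in limma 3.58.1 (R 4.3.3), with no covariates, and p-values were adjusted by Benjamini-Hochberg over 43601 probes. A call needed a fold change of 1.5 (log2 0.585) and an adjusted p of 0.05. Steps were tested on 43192 simulated probes. Of 70 changes of 0.6 log2 units 10 were called, of 70 changes of 1 unit 39, and of 60 changes of 2 units 53. Among the unchanged probes 9 were called. Far fewer probes were changed in the simulation than the 1203 called in the data, and the adjusted p depends on that number. These shares therefore need not hold for the real arrays. The number of arrays limits the precision, and a gene that was not called can still have changed. A limma p-value sets the difference between groups against the spread between pools within a group, drawn towards a value shared by all probes. As each group lay on a slide of its own, that spread holds no difference between slides.

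Of 27369 probes with a RefSeq accession 25598 had a symbol (RefSeq genes, assembly GRCz12tu). Genes named are those called, the 5 largest rises and falls, regulators, the highest and lowest of each role and genes whose probes disagree. The values of 1 gene that this rule names are not reported here. The genes and lists were chosen with earlier results of these data known. Pairs were compared with exact permutation tests. Alternatives were other offsets, scalings, filters, probe summaries, thresholds, a replicate block and leaving out each pool. Summaries used pandas 2.3.3 and numpy 2.4.6 in Python 3.11.15, permutations scipy 1.17.1, and plots matplotlib 3.10.9.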

Additional observations from a re-analysis of the deposited data

Results flagged for a closer look

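Of 82 groups of 4 pools tested, 5 held a pool far from the other 3, and chance alone would place about 1 in 20 groups so. Control pool 4 stood above its group for eef1a1l1 (log2 signal 17.69, the others 17.33 to 17.38) and for eef2b (16.65, the others 16.11 to 16.17). Crush pool 1 was low for eif3ea (14.78, the others 15.07 to 15.12), and crush pool 4 was low for eif4ba (11.81, the others 11.99 to 12.003). Control pool 2 was low for vars2 (6.14, the others 6.54 to 6.59).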

How the results depend on the processing

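The count of 8 over-expressed genes was 8 under normexp offsets of 16 and 50, in the deposited log2 values, among bright probes and as the mean of all probes of a gene, 7 with outlier spots kept and 6 with the scanner's processed signal. Median scaling gave 16, with a median log2 fold change of 0.37. A log2 fold change of 1.5 could only give 0, as the values ran from -1.01 to 0.99. Same-numbered pools were not shown to be paired (correlations of -0.12 to 0.18, only number 4 correlating best with its own). With the replicate number as a block 2 genes were called, rars1 and wars1, and 488 probes against 1203 on the whole array. Leaving out 1 pool at a time gave 1 to 10 genes called higher, 0 to 1 called lower (eef1a2), a median of 0.23 to 0.29 and 0 to 2 genes with every crush pool below every control pool. The share of higher among all called probes was 68.7%, and 43.8% with the processed signal or 49.4% with median scaling, while no translation gene was called lower in either.

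Genes near 0 changed sign in places. With the processed signal eif4ebp2 was at -0.00953 and vars2 at -0.18. Median scaling gave 0.046 for eef1akmt2, 0.11 for eif2b2, 0.081 for eif4ba and -0.055 for vars2. The value of eif4enif1 was -0.0034 in the deposited values and -0.00339 with outlier spots kept. The mean of all probes gave -0.19 for eef1a1b, 0.029 for eef1akmt2 and -0.11 for vars2. With 1 pool left out the ranges were -0.088 to 0.093 for eif2b2, -0.051 to 0.064 for eif4enif1, -0.16 to 0.014 for eif4eb, -0.10 to 0.0603 for vars2, -0.0805 to 0.028 for eif4ba and -0.094 to 0.062 for eef1akmt2. The causes were not tested. With 4 arrays in each group, and each group on a slide of its own, an effect of the slide cannot be told apart from that of the crush. The dim probes of eif2ak2, lars2 and vars2 had SEs of 0.21, 0.21 and 0.14, against 0.16 and 0.14 for the called genes wars1 and eef2b. A log2 fold change the size of these SEs is under the fold threshold of 0.585, so it could not be called in any gene.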
